A study of Mus musculus with 9 samples.

Results

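The lysosomal gene set described here holds 32 mouse genes for enzymes inside the lysosome and for proteins of its membrane. The genes were chosen by name, with earlier results of these data known, and were matched to the Ensembl identifiers of the table. Genes were kept if they reached 0.5 RPKM (reads per kilobase of exon, scaled to the reads of the library) in at least 3 of 9 libraries. All 32 were kept, of 14831 genes in the table and 14430 that met the same criterion, and none of their values lay at the table's floor. The RNA was spinal cord RNA. All mice were C57Bl/6 females, wild-type and 10 weeks old, and each was injected with 10 µl in a lateral ventricle (the right one) 2 weeks before dissection. The first group of 3 libraries received saline, the second 500 µg of a control antisense oligonucleotide (ASO) and the third 500 µg of an ASO directed against mouse C9orf72. An ASO is a short modified nucleic acid that pairs with a chosen RNA and lowers its level. The model is therefore one of a lowered normal gene for 2 weeks, and the series set out to test what loss of C9orf72 function does to this tissue. The labels do not say whether libraries of a group came from separate mice, so the p-values measure library-to-library spread, which may be technical.

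Lysosomes are acidic compartments in which proteases, glycosidases, sulfatases and lipid hydrolases break down material that arrives by endocytosis and autophagy. Heavily glycosylated membrane proteins line the compartment, and transporters and channels in the membrane release the products and calcium. Inherited loss of many of these enzymes leads to storage diseases with neurodegeneration, and microglia, the resident phagocytes of the central nervous system, hold large amounts of several cathepsins. The C9orf72 protein forms a complex with Smcr8 and Wdr41 that has been placed at lysosomes and in autophagy. ASOs themselves enter cells largely by endocytosis and collect in endosomes and lysosomes.

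The step between low values of short genes implied 90300000 to 124150000 reads per library, so that the lowest member, Naglu, rested on about 356 to 580 reads in each. C9orf72 stood at 11.1 ± 0.537 RPKM after saline (SD, n = 3), 11.2 ± 0.549 after the control ASO and 3.07 ± 0.359 after the C9orf72 ASO, which follows the labels. Neuron, oligodendrocyte and astrocyte markers were present in all libraries, with summed levels of 2947 to 3471 RPKM over 11 neuron genes, 6059 to 7684 over 8 oligodendrocyte genes and 1282 to 1463 over 7 astrocyte genes. Of 10 leukocyte markers 4 were measured, summing to 3.61 to 4.998 RPKM after saline, 7.16 to 10.8 after the control ASO and 7.05 to 8.69 after the C9orf72 ASO. In every saline and C9orf72 ASO library 2 of these 4 were at the floor. The 5 red cell markers measured summed to 2921 RPKM in 1 control ASO library and to between 724 and 1264 in the other 8. The 7 endothelial and mural cell markers summed to 83.7 to 107.01 RPKM after saline, 59.4 to 81.7 after the control ASO and 60.4 to 66.1 after the C9orf72 ASO.

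Spinal cord expressed the lysosomal genes at levels that spanned 222-fold, from Psap at a mean of 336 RPKM over the 9 libraries to Naglu at 1.52 RPKM. Levels are per length as the authors scaled them. The median member stood at 20.2 RPKM against 7.96 RPKM for all genes tested, and 24 of 32 lay above that general median. Psap, which encodes the precursor of the saposins that present sphingolipids to their hydrolases, came first, followed by the membrane glycoprotein gene Lamp1 at 258 RPKM, the cysteine protease gene Ctsb at 108.9 RPKM and the tetraspanin gene Cd63 at 92.0 RPKM. These 4 held the same order in each library, and each was above the next in all 9 libraries. Below them came Ctsl (64.1 RPKM), Scarb2 (53.3), Ctss (51.0), Gaa (48.3), Npc2 (44.1) and Ppt1 (40.8), and each of these 6 overlapped with the next of them. Of all 31 neighbouring pairs, 12 did not overlap over the 9 libraries.

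Middle levels of 10 to 35 RPKM belonged to Npc1 (33.4), Lamp2 (26.2), Asah1 (25.3), Ctsz (24.7), Tpp1 (23.3), Smpd1 (22.9), Arsb (17.5), Hexa (17.4), Ctsa (16.5), Mcoln1 (13.7), Galc (10.7), Neu1 (10.4) and Lipa (10.4). The lowest levels were those of enzymes that remove single sugars or sulfates. Man2b1 stood at 8.63 RPKM, Arsa at 6.54, Gla at 5.79, Gusb at 4.74, Glb1 at 4.69, Manba at 3.39, Sgsh at 2.70 and Naglu at 1.52, and the membrane protein gene Cln3 lay among them at 3.61. The proteases ran from 16.5 to 108.9 RPKM, so that no protease gene of the set was among these low ones.

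**Figure D1:**
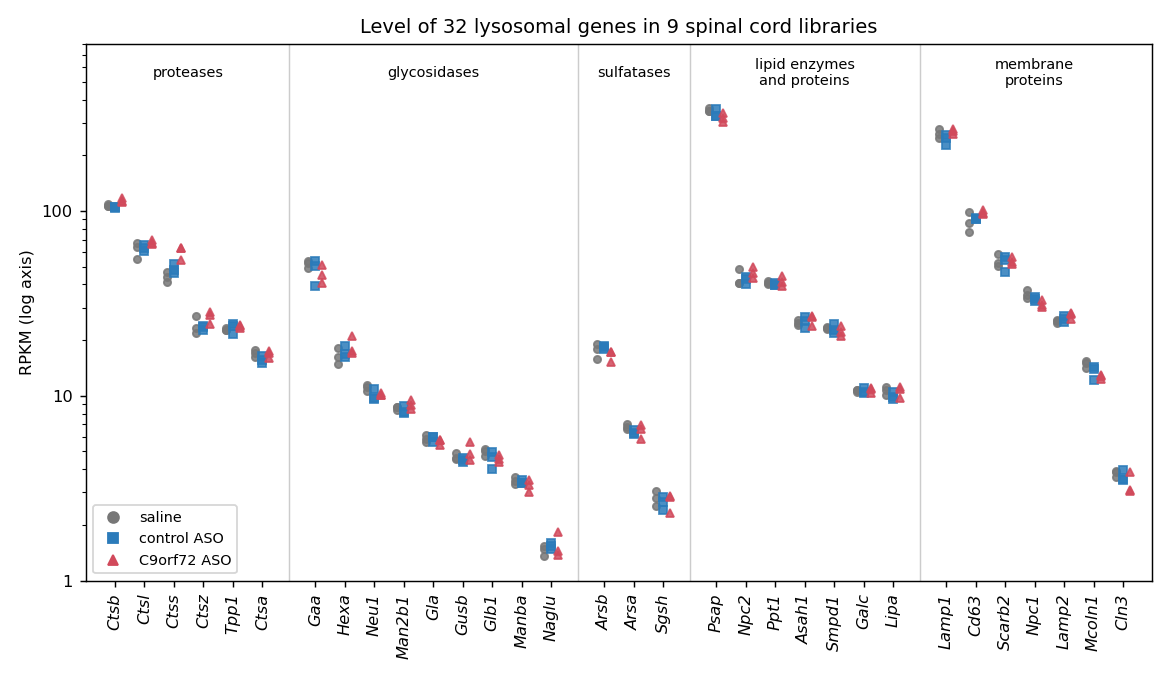
Level of each of the 32 genes in each of the 9 libraries, in RPKM on a log axis, ordered by role and by mean level; symbols mark saline (circles), control ASO (squares) and C9orf72 ASO (triangles). Psap and Lamp1 lie highest and Naglu lowest, and the libraries of a gene lie close together relative to the distances between genes.

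The members varied between libraries of a group about as much as all genes tested, which were not matched to them for level. The pooled within-group SD on the log2 scale had a median of 0.08 over the members, against 0.10 over all genes tested. It was lowest for Ctsb (0.03) and Galc (0.04), and highest for Gaa (0.17), the acid alpha-glucosidase gene that degrades glycogen, and Hexa (0.14). In 31 of 32 members the highest of the 9 libraries was less than 1.5 times the lowest, and the exception was Ctss, at 1.52 times. In each library the signed log2 deviation of each member from its own mean over all libraries was taken. The median of these over the members, in which ups and downs cancel, was at most 0.06 in size in any library. Saline replicates 1 and 2 each held the highest value of 7 members, and C9orf72 ASO replicate 1 held the highest of 6. Control ASO replicate 3 held the lowest value of 7.

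Promoter sequences were searched for an element already linked to lysosomal genes. Its share among the members is therefore a description of such genes and no independent result. RefSeq windows of 250 bases before to 50 bases after the transcript start (build GRCm38.p6) were matched by symbol for 29 of the 32 members, without Asah1, Ctsb and Npc1. The 6-base palindrome CACGTG, an E-box that forms the core of the CLEAR element recognised by the transcription factors Tfeb and Tfe3, was searched on both strands. It occurred in the windows of 11 of 29 members (37.9%) and in 8.09% of 27025 genes with a window. The longer TCACGTGAC, which contains the former and was also searched as its reverse complement, occurred in 4 members (13.8%) and 0.896% of genes. These are letter matches, not measured sites. The stretches of 30 bases shown here come from the 4 members with the longer match and from Lamp1, which had 4 copies of the core. They lie 45 bases before the start in Mcoln1, 12 in Ctsa, 121 in Cln3, 194 in Gla and 28 in Lamp1 (the third of its 4 copies), counted to the first base of the core. Each is given 5′ to 3′ on the gene's strand with the core in capitals.
Mcoln1, chr8:3500462-3500491, plus strand: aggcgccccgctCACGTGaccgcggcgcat
Ctsa, chr2:164833749-164833778, plus strand: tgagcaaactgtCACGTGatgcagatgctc
Cln3, chr7:126583340-126583369, minus strand: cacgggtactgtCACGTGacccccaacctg
Gla, chrX:134601182-134601211, minus strand: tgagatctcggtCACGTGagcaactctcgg
Lamp1, chr8:13159121-13159150, plus strand: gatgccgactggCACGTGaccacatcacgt

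Windows of Arsa, Ctsl, Gaa, Glb1, Naglu and Sgsh held the core without the longer match. Among the 18 members with a window and no core was Ctss, which gave the largest difference between groups among the members and whose 250 bases before the start are shown for that reason. This stretch has 44.8% G and C, the lowest of the 29 members, whose median was 54.4%.
Ctss, chr3:95526536-95526785, plus strand: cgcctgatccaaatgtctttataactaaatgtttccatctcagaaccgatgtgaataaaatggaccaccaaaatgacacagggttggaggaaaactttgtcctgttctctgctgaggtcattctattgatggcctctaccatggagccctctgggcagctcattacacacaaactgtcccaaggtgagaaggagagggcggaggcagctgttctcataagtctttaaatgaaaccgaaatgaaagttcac

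The C9orf72 ASO was compared with the control ASO so that both groups had been injected with an oligonucleotide. Each ASO group received the same oligonucleotide throughout, so lowering of C9orf72 and other effects of either sequence cannot be told apart. None of the 32 lysosomal genes passed the threshold of an adjusted p under 0.05 over all genes tested (limma), where 0.0693% of all genes passed. At an unadjusted p under 0.05 there were 3 members, Ctss, Ctsb and Ctsz, all higher after the C9orf72 ASO. They were 9.38% of the members, where 14.1% of all genes tested met this criterion, 6.39% higher and 7.71% lower. Log2 fold changes ran from -0.15 (Arsb) to 0.30 (Ctss), with a median of 0.03 against -0.01 over all genes tested, and 22 of 32 were above 0 against 45.8% of all genes. Every member's 95% interval lay between -0.35 and 0.47, so that no member's interval reached a log2 difference of 0.5 in either direction. The libraries of the C9orf72 ASO lay above those of the control ASO without overlap in 6 members (18.8%, where 10.1% of all genes tested did so) and below them in 1 (3.12%, against 11.8%). The 6 were Ctss, Ctsb, Ctsz, Ctsl, Lamp1 and Cd63, and the 1 was Arsb.

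Against saline the result over the set was also 0 of 32 (0.0693% of all genes passed), with 4 members at an unadjusted p under 0.05 (12.5%, against 14% of all genes). Ctss and Cd63 were higher, as were 3.79% of all genes, and Mcoln1 and Npc1 lower, as were 10.2%. The median log2 fold change was 0.01 against -0.03 over all genes. No overlap with saline was seen in 3 members with higher values, Ctss, Ctsb and Lamp2 (9.38%, against 5.61% of all genes), and in 4 with lower values, Mcoln1, Npc1, Psap and Neu1 (12.5%, against 12.4%). These C9orf72 ASO libraries serve in both comparisons, so the values are given side by side and do not repeat each other.

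The control ASO was compared with saline to give the background of an oligonucleotide without this target. Again 0 of 32 members passed (0.00693% of all genes did), 1 had an unadjusted p under 0.05 (Neu1, lower, where 5.35% of all genes had one, 1.37% higher and 3.98% lower), and the median log2 fold change was -0.03 against -0.02 over all genes. No member lay above saline without overlap (3.16% of all genes did), and Arsa and Ctsb lay below it (6.25%, against 7.15%). With both ASO groups set against saline, 0 of 32 passed (0.0139% of all genes did) and 4 had an unadjusted p under 0.05, Ctss higher and Mcoln1, Neu1 and Npc1 lower (12.5%, against 8.42% of all genes, 1.88% higher and 6.54% lower). No member's ASO libraries were all above or all below saline, where 0.929% and 2.26% of all genes were.

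**Figure D2:**
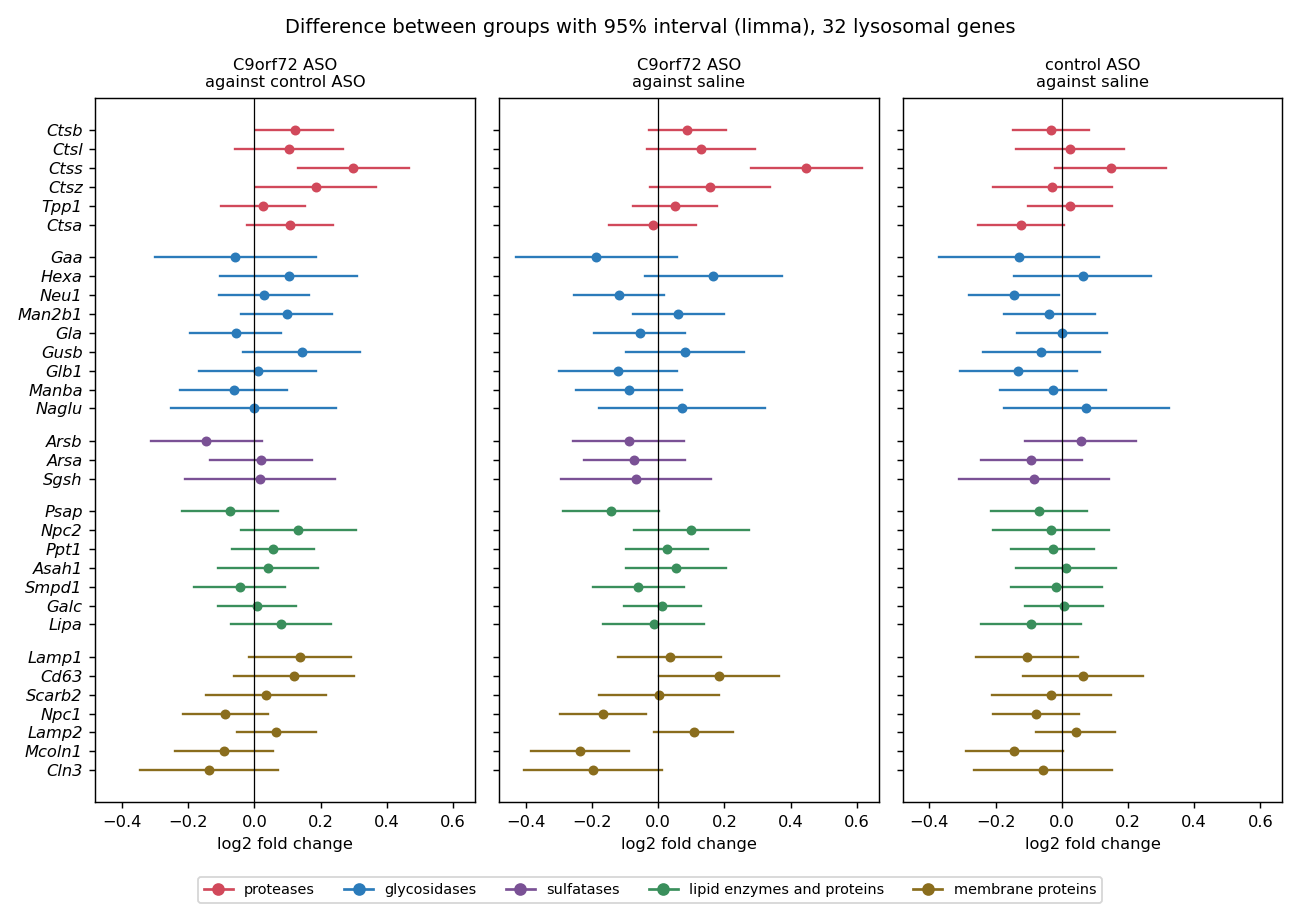
Log2 fold change (point) with its 95% interval from limma (line) for each of the 32 genes in the 3 pairwise comparisons, coloured by role. Ctss has the highest value in each comparison (0.30, 0.45 and 0.15), and most intervals include 0.

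The 6 protease genes all had positive fold changes against the control ASO, with a median of 0.11, and 4 of the 6 (Ctss, Ctsb, Ctsz and Ctsl) had C9orf72 ASO libraries above those of the control ASO without overlap, as did 10.1% of all genes tested. Against saline 5 of 6 were positive with a median of 0.11, and in control ASO against saline 3 of 6 with a median of 0.00. None passed the threshold in any comparison.

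Ctss encodes cathepsin S, a cysteine protease of microglia and macrophages that trims the invariant chain of MHC class II. It stood at 47.0, 41.4 and 43.7 RPKM in the saline libraries, 46.4, 51.8 and 48.2 RPKM in the control ASO libraries, and 63.0, 63.1 and 54.3 RPKM in the C9orf72 ASO libraries. This last group lay above the other 6 libraries, while saline and control ASO overlapped. The means were 44.0 ± 2.78, 48.8 ± 2.78 and 60.1 ± 5.03 RPKM (SD, n = 3). The log2 fold change was 0.30 against the control ASO (SE 0.08, 95% interval 0.13 to 0.47, adjusted p = 0.234, limma) and 0.45 against saline (SE 0.08, interval 0.28 to 0.61, adjusted p = 0.0689). For the control ASO against saline it was 0.15 (SE 0.08, interval -0.02 to 0.32, adjusted p = 0.794). Ctss passed against saline when C9orf72 ASO replicate 3, the lowest of its group, was left out (0.52, adjusted p = 0.0289), and it did not pass in any of the 8 other fits that left out 1 library.

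Values of microglia markers are given beside Ctss. The 14 markers, all measured and none at the floor in any library, summed to 209 to 220 RPKM after the C9orf72 ASO, 168 to 180 after the control ASO and 165 to 190 after saline. Their median log2 fold change was 0.27 against the control ASO (13 of 14 positive, against 45.8% of all genes, 0 past the threshold). Against saline it was 0.33 (11 of 14 positive, against 41.3% of all genes, 1 past the threshold). At an unadjusted p under 0.05 (limma), 8 were higher and 0 lower against the control ASO (57.1%, against 14.1% of all genes). Against saline 8 were higher and 1 lower (64.3%, against 14% of all genes). Ctss, which is not among the 14, divided by their sum gave 25.2% ± 1.09 after saline (SD, n = 3), 27.8% ± 0.941 after the control ASO and 27.9% ± 2.85 after the C9orf72 ASO. More microglia and more Ctss RNA per cell cannot be told apart in whole tissue, and the part of the markers in the Ctss values was not tested.

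Ctsb, the cysteine protease gene with the highest level of the family members here, stood at 106.95, 106.48 and 108.75 RPKM after saline, 105.3, 105.5 and 104.1 after the control ASO, and 117.9, 112.2 and 112.6 after the C9orf72 ASO. Those of the C9orf72 ASO lay above all others and the control ASO libraries below all others. The difference had a log2 fold change of 0.12 against the control ASO (SE 0.05, 95% interval 0.01 to 0.24, adjusted p = 0.335) and 0.09 against saline (SE 0.05, adjusted p = 0.469). Ctsz, a carboxypeptidase of the same papain-like family, had 23.8, 22.8 and 23.7 RPKM after the control ASO and 27.3, 24.4 and 28.4 after the C9orf72 ASO. Saline spanned much of that range, with 27.0, 21.8 and 23.2 RPKM. The log2 fold change of Ctsz was 0.19 against the control ASO (SE 0.08, interval 0.01 to 0.37, adjusted p = 0.346) and 0.16 against saline (adjusted p = 0.416).

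Ctsl, the gene of cathepsin L, had 65.4, 60.4 and 62.7 RPKM after the control ASO, 69.4, 67.2 and 66.1 after the C9orf72 ASO, and 66.8, 54.8 and 64.2 after saline. Its log2 fold change against the control ASO was 0.11 (SE 0.07, adjusted p = 0.529), and it overlapped with saline. Ctsa encodes the carboxypeptidase that protects beta-galactosidase and neuraminidase from breakdown. It stood at 17.7, 16.3 and 17.1 RPKM after saline, 16.3, 15.7 and 15.0 after the control ASO and 17.5, 16.1 and 17.0 after the C9orf72 ASO. For Ctsa the control ASO was the low group, at -0.12 against saline (SE 0.06, interval -0.25 to 0.01, adjusted p = 0.794), and the C9orf72 ASO stood at 0.11 against it (adjusted p = 0.436). Tpp1, the serine tripeptidyl peptidase gene whose loss causes a childhood ceroid lipofuscinosis, had 22.8, 22.6 and 23.3 RPKM after saline. It had 21.6, 24.5 and 23.8 after the control ASO and 24.1, 23.7 and 23.2 after the C9orf72 ASO, with overlap of all groups and a log2 fold change of 0.03 against the control ASO (SE 0.06, interval -0.10 to 0.15, adjusted p = 0.862).

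**Figure D3:**
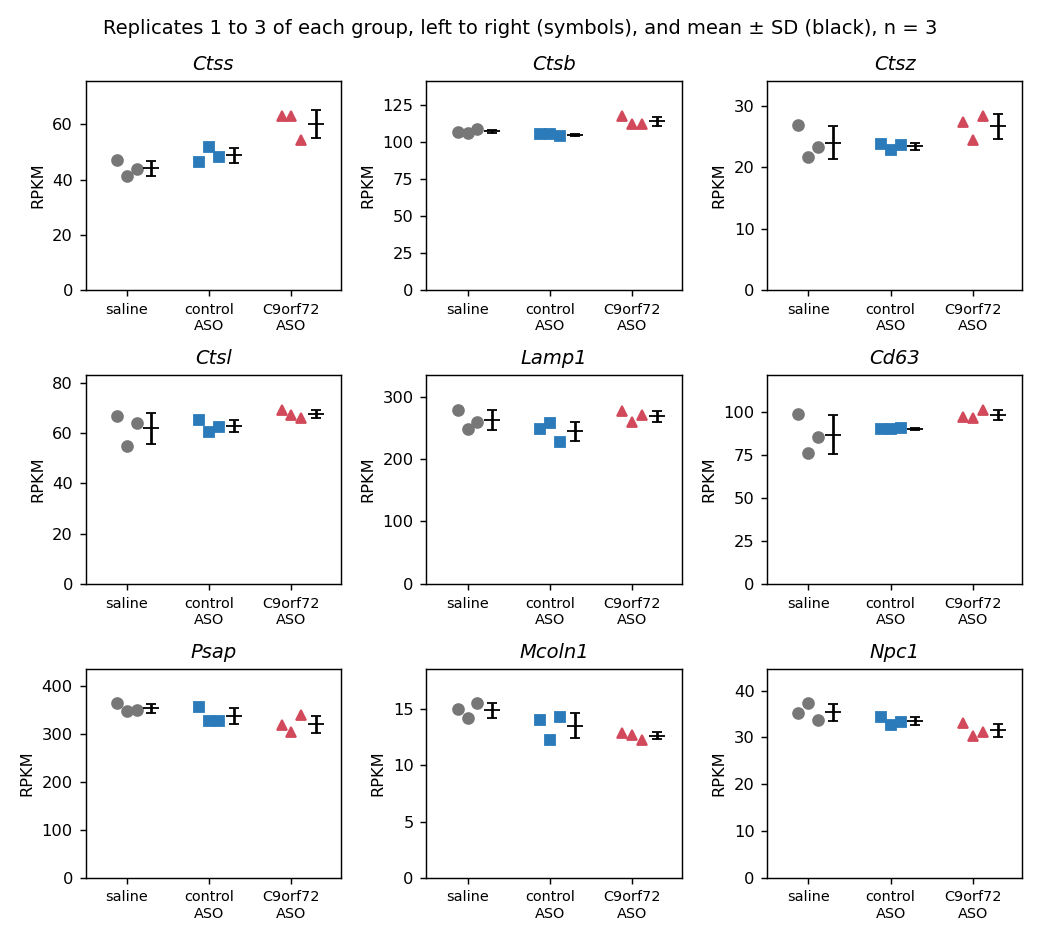
RPKM of 9 lysosomal genes in the 3 replicates of each group (symbols) with the group mean ± SD (black, n = 3), on axes that start at 0. Ctss and Ctsb have C9orf72 ASO libraries above the other 6, and Mcoln1, Npc1 and Psap have C9orf72 ASO libraries below those of saline.

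The 9 glycosidase genes showed no shared direction, with 5 of 9 positive against the control ASO (median 0.01), 4 of 9 against saline (median -0.06) and 3 of 9 in control ASO against saline (median -0.04). Hexa, which encodes the alpha subunit of beta-hexosaminidase, had 18.2, 14.9 and 16.3 RPKM after saline, 16.3, 16.8 and 18.5 after the control ASO and 17.1, 17.4 and 21.1 after the C9orf72 ASO. All 3 groups overlapped, C9orf72 ASO replicate 3 was the highest library, and the log2 fold change against the control ASO was 0.10 (SE 0.09, interval -0.10 to 0.31, adjusted p = 0.633). It was 0.0075 without C9orf72 ASO replicate 3 and reached 0.16 without control ASO replicate 3. Neu1, the sialidase gene, had 11.4, 10.6 and 11.2 RPKM after saline, 10.8, 9.58 and 9.67 after the control ASO and 10.2, 10.1 and 10.4 after the C9orf72 ASO. Both ASO groups had lower means than saline, at -0.13 together (SE 0.05, interval -0.25 to -0.01, adjusted p = 0.583), and only the C9orf72 ASO libraries were clear of the saline ones.

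Gaa had the highest pooled within-group SD of the glycosidases. Its values ran from 39.2 RPKM in a control ASO library to 53.4 in a saline library. Its group means lay within that range (51.7 ± 2.06, 47.7 ± 7.45 and 45.6 ± 5.05 RPKM after saline, control ASO and C9orf72 ASO). Gusb, the beta-glucuronidase gene, had 1 high library, C9orf72 ASO replicate 1 at 5.63 RPKM, against 4.36 to 4.92 in the other 8. Naglu, which removes N-acetylglucosamine from heparan sulfate, had a mean of 1.46 ± 0.0955 RPKM after saline, 1.54 ± 0.0505 after the control ASO and 1.55 ± 0.251 after the C9orf72 ASO. Gla, Glb1, Man2b1 and Manba had log2 fold changes between -0.06 and 0.10 against the control ASO and between -0.12 and 0.06 against saline.

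Of the 3 sulfatases 2 were positive against the control ASO (median 0.02) and 0 against saline (median -0.07). Arsb, which acts on dermatan and chondroitin sulfate, was the member with the lowest fold change against the control ASO, at -0.15 (SE 0.08, adjusted p = 0.41). Its values were 18.3, 18.0 and 18.6 RPKM after the control ASO and 17.2, 17.3 and 15.2 after the C9orf72 ASO, while saline ranged from 15.8 to 19.1 and overlapped with both. In the GENCODE M21 annotation 48.2% of the exon bases of Arsb are shared with an antisense gene. Exon overlap with a gene on the opposite strand was found for 12 members and on the same strand for 2. Ctsl (28.2%), Sgsh (21.9%), Arsa (19.8%) and Ctsb (16.3%) were among the 12. The libraries were strand-specific, and whether reads were counted by strand is not given in the sources used here. Arsa, the arylsulfatase that degrades the myelin lipid sulfatide, and Sgsh, the heparan sulfamidase, both stood at 0.02 against the control ASO and at -0.07 against saline.

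Of the 7 genes for lipid enzymes and lipid-binding proteins, 5 were positive against the control ASO (median 0.04) and 4 against saline (median 0.01). Psap had 363, 347 and 348 RPKM after saline, 356, 326 and 326 after the control ASO, and 317, 303 and 338 after the C9orf72 ASO. This last group lay below the saline libraries, whereas they overlapped with the control ASO. Its log2 fold change was -0.14 against saline (SE 0.07, interval -0.29 to 0.003, adjusted p = 0.367) and -0.07 against the control ASO (SE 0.07, adjusted p = 0.629). The latter ran from -0.031 without control ASO replicate 1 to -0.1152 without C9orf72 ASO replicate 3, and was -0.0357 without C9orf72 ASO replicate 2. Npc2, which carries cholesterol to Npc1, had a log2 fold change of 0.13 against the control ASO (SE 0.08, adjusted p = 0.463) and 0.10 against saline (adjusted p = 0.613). Galc, the galactosylceramidase that degrades myelin galactolipid, was nearly flat, at 10.6 ± 0.157, 10.7 ± 0.326 and 10.7 ± 0.358 RPKM after saline, control ASO and C9orf72 ASO, and its 95% interval against the control ASO ran from -0.11 to 0.12. Asah1 (acid ceramidase), Smpd1 (acid sphingomyelinase), Lipa (acid lipase) and Ppt1 (a thioesterase that removes palmitate from proteins) had log2 fold changes between -0.04 and 0.08 against the control ASO.

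Membrane protein genes went in different directions. Against the control ASO 4 of 7 were positive (median 0.03), and against saline 4 of 7 (median 0.00). Lamp1, a main glycoprotein of the lysosomal membrane, had 279, 248 and 260 RPKM after saline, 249, 257 and 227 after the control ASO and 276, 259 and 270 after the C9orf72 ASO. The control ASO was the low group, and saline and C9orf72 ASO overlapped. The log2 fold change was 0.14 against the control ASO (SE 0.07, interval -0.02 to 0.29, adjusted p = 0.396) and 0.03 against saline (adjusted p = 0.865). The first of these was 0.0857 without control ASO replicate 3 and 0.0907 after quantile normalization. Lamp2, needed for chaperone-mediated autophagy and for autophagosome fusion, had 24.9, 25.6 and 25.3 RPKM after saline, 25.1, 26.9 and 26.1 after the control ASO and 28.0, 27.7 and 26.0 after the C9orf72 ASO. Here saline was the low group, at 0.11 below the C9orf72 ASO on the log2 scale (SE 0.05, interval -0.01 to 0.23, adjusted p = 0.402), and the control ASO overlapped with both. Against the control ASO Lamp2 stood at 0.07 (SE 0.05, adjusted p = 0.592), at 0.0393 without control ASO replicate 1 and at 0.0998 without C9orf72 ASO replicate 3.

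Mcoln1, the gene of the calcium channel mucolipin, had 15.0, 14.2 and 15.5 RPKM after saline, 14.0, 12.2 and 14.3 after the control ASO and 12.9, 12.7 and 12.3 after the C9orf72 ASO. Its C9orf72 ASO libraries lay below all saline libraries, and the control ASO group spanned from below the C9orf72 ASO libraries to just inside saline. The log2 fold change was -0.24 against saline (SE 0.07, interval -0.38 to -0.09, adjusted p = 0.209), -0.09 against the control ASO (SE 0.07, adjusted p = 0.538) and -0.14 for the control ASO against saline (SE 0.07, adjusted p = 0.794). Of these, the last was -0.0741 without control ASO replicate 2 and -0.0919 with the trend over exon length removed, and that against the control ASO ran from -0.162 to -0.0519 when control ASO replicate 2 or 3, in that order, was left out. Npc1, the membrane protein that moves cholesterol out of the lysosome, had 35.2, 37.3 and 33.6 RPKM after saline, 34.4, 32.7 and 33.3 after the control ASO and 33.1, 30.3 and 31.1 after the C9orf72 ASO. It was at -0.17 against saline (SE 0.06, interval -0.30 to -0.04, adjusted p = 0.263) and at -0.09 against the control ASO (SE 0.06, adjusted p = 0.512), with group means in the order saline, control ASO, C9orf72 ASO as for Mcoln1 and Psap.

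Cd63, a tetraspanin of late endosomes and lysosomes, had 99.2, 76.5 and 85.5 RPKM after saline, 90.2, 90.2 and 91.1 after the control ASO and 97.0, 96.6 and 101.6 after the C9orf72 ASO. Saline replicate 1 lay inside the C9orf72 ASO range, and saline replicate 2 was the lowest library. Its log2 fold change was 0.18 against saline (SE 0.08, interval 0.003 to 0.37, adjusted p = 0.351) and 0.12 against the control ASO (SE 0.08, adjusted p = 0.519). The value against saline was 0.09 without saline replicate 2 and 0.28 without saline replicate 1. Scarb2, the receptor that brings glucocerebrosidase to lysosomes, had 50.5, 58.3 and 52.1 RPKM after saline, 56.7, 54.3 and 46.7 after the control ASO and 56.6, 51.5 and 53.0 after the C9orf72 ASO. The groups overlapped, and the log2 fold change against the control ASO was 0.03 (SE 0.08, interval -0.15 to 0.21, adjusted p = 0.87). Cln3, whose loss causes juvenile ceroid lipofuscinosis, had means of 3.82 ± 0.151, 3.67 ± 0.25 and 3.34 ± 0.464 RPKM after saline, control ASO and C9orf72 ASO, with a log2 fold change of -0.20 against saline (SE 0.095, adjusted p = 0.383).

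**Figure D4:**
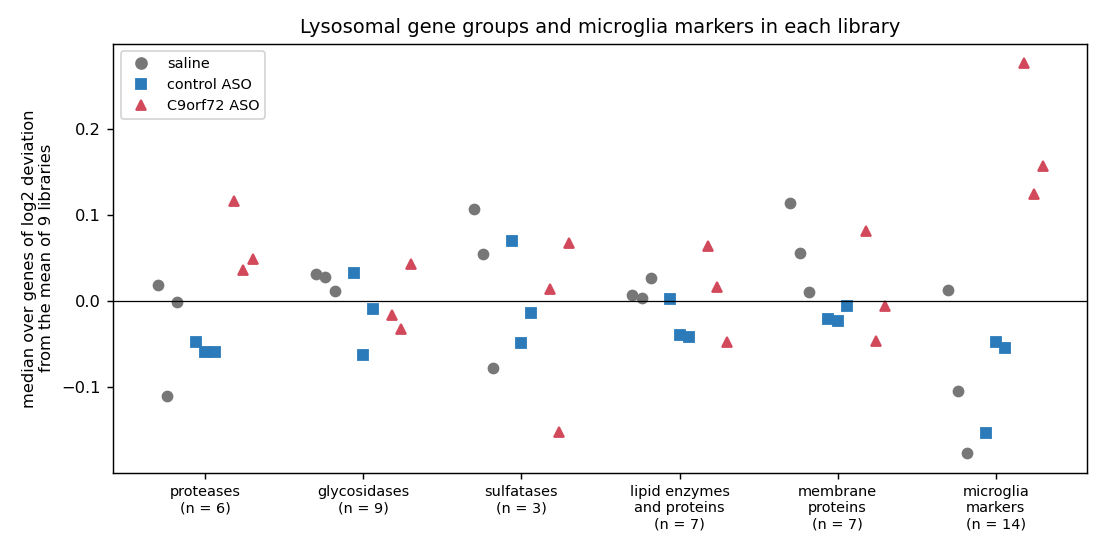
Median over the genes of each role of the log2 deviation from the gene's mean over 9 libraries, for each library, beside the same for 14 microglia markers (circles saline, squares control ASO, triangles C9orf72 ASO). The C9orf72 ASO libraries lie highest for the proteases (0.04 to 0.12) and for the microglia markers (0.12 to 0.28), and the other roles have no such separation.

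For the 11 members with CACGTG in the window, the median log2 fold change was 0.01 against the control ASO (6 of 11 positive). Against saline it was -0.07 (3 of 11). The 18 with a window and without the core had 0.06 (14 of 18 positive) and 0.04 (12 of 18), in the same order. For the control ASO against saline the medians were -0.09 with the core (3 of 11 positive) and -0.03 without it (7 of 18). Over all genes tested 45.8%, 41.3% and 42.5% were positive in these comparisons, in that order. A link between the core and the fold changes was not tested. Across all genes tested with a length, fold changes against the control ASO ran with exon length (Pearson r = -0.27 over 13970 genes, which are not independent). When genes were split by length into 5 equal classes, the median was 0.09 in the shortest class and -0.09 in the longest. Against saline, r was -0.07 for the C9orf72 ASO and 0.23 for the control ASO. For the control ASO against saline the median was -0.07 in the shortest class and 0.03 in the longest. Ctss, Ctsz and Cd63 have the shortest exon lengths of the set (1358, 1441 and 1450 bases, against a median of 3413). With the length trend removed, Ctss stood at 0.22 against the control ASO (adjusted p = 0.316) and at 0.43 against saline (adjusted p = 0.068), and Ctsz at 0.11 against the control ASO (adjusted p = 0.448). In the same fit Ctsb and Lamp2, of 4743 and 5039 exon bases, had values further from 0, with Ctsb at 0.17 (adjusted p = 0.248) and Lamp2 at 0.11 (adjusted p = 0.386) against the control ASO.

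Other lysosomal genes were counted from lists that hold none of the members. No gene of these lists passed in any of the 4 comparisons. Among 29 further hydrolases and cofactors, 19 were positive against the control ASO (median 0.05), and 3 higher and 1 lower had an unadjusted p under 0.05. The shares over all genes tested, for this and the lists that follow, were 45.8% positive, 6.39% higher and 7.71% lower at that p. Ctsd, the gene of the aspartic protease cathepsin D, stood at 96.4 ± 5.40, 91.7 ± 5.66 and 108.7 ± 5.77 RPKM after saline, control ASO and C9orf72 ASO (0.25 against the control ASO, SE 0.07, adjusted p = 0.24). Grn, the progranulin gene linked to frontotemporal dementia, was at 0.07 (SE 0.07, adjusted p = 0.636).

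Of 25 further membrane proteins 6 were positive against the control ASO (median -0.06), with 2 higher and 5 lower at an unadjusted p under 0.05. Cd68, a membrane glycoprotein of phagocytes, stood at 4.24 ± 0.526, 4.28 ± 0.343 and 5.51 ± 0.421 RPKM after saline, control ASO and C9orf72 ASO (0.36, SE 0.10, adjusted p = 0.237). Slc38a9, an amino acid sensor of mTORC1, was at -0.21 (SE 0.07, adjusted p = 0.265). The 18 subunits and accessory proteins of the proton pump had a median of 0.01, with Atp6v1f at 0.27 (SE 0.09, adjusted p = 0.274) and Atp6v0a1 at -0.20 (SE 0.08, adjusted p = 0.306). The 15 genes for transport to the lysosome had a median of -0.02, with 0 higher and 4 lower at an unadjusted p under 0.05. Sort1, the receptor sortilin, was at -0.20 (SE 0.06, adjusted p = 0.257), and Gga3, a sorting adaptor, at -0.17 (SE 0.05, adjusted p = 0.247). The transcription factor genes Tfeb, Tfe3 and Mitf stood at -0.06 (SE 0.12), -0.07 (SE 0.06) and -0.12 (SE 0.08), with adjusted p of 0.857, 0.611 and 0.471.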

How the data were processed

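Strand-specific RNA-seq of 9 spinal cord libraries (3 per group) was analysed from a table of 14831 genes. The submitters' processing notes name cutadapt 1.2.1, the aligner GSNAP and the mouse build mm9. For the read counter and its annotation, the sources used here give nothing. The deposited values are read here as RPKM computed by the authors. The header names no unit. At the implied depth, value times length was within 0.1 of whole reads for 53.1% to 67.3% of values per library. Genes up to 350 bases were used for this. The depth was fitted to these same values, so the 20% that holds for a depth fixed in advance understates chance. Values under 0.5 RPKM stand at 0.1. Symbols were matched for 14321 genes from GENCODE M21, whose exon lengths were used. Positions are given only for the promoter stretches. They are in GRCm38.p6, a build other than the mm9 named for the reads.

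Differences were tested with limma 3.58.1 (R 4.3.3, statmod 1.5.0; trend and robust estimation) on log2(RPKM + 0.1) in 1 fit of all libraries. The 14430 genes with at least 0.5 RPKM in 3 libraries entered, and p was adjusted by Benjamini-Hochberg over them (threshold 0.05). Fold changes on this scale understate those of low genes. The script was tested on simulated data, in which the changes were larger than any member difference here. Power for differences of the members' size was not tested. Members and lists were chosen with earlier results of these data known. The value in every library is given for the 4 members with the smallest p in each comparison. It is also given for a fixed set (Lamp1, Lamp2, Ctsb, Ctss, Psap, Hexa, Tpp1, Mcoln1, Scarb2). Fold changes of these members are not given for every comparison. From each other list came the 2 genes with the smallest p against the control ASO, besides C9orf72, Ctsd, Grn and Tfeb; 1 gene that this rule names is not reported here. The remaining members named with values, such as Ctsl, Arsb, Gaa, Gusb and Cln3, were picked after their values were seen. Alternatives were another variance estimate, pseudocount, filter, scaling, samples in the fit, a length trend removed and each library left out.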

Additional observations from a re-analysis of the deposited data

How the results depend on the processing

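No member passed in the 4 comparisons under the 8 alternatives to the test, pseudocount, filter, scaling, length trend and samples in the fit. Leaving out each library gave 0 members in 3 comparisons and 0 to 1 for the C9orf72 ASO against saline, where Ctss passed without C9orf72 ASO replicate 3. With 1 library left out, the median log2 fold change over the members was 0.0193 to 0.06 against the control ASO (highest without control ASO replicate 1), -0.0204 to 0.0219 for the C9orf72 ASO against saline, -0.051 to -0.0222 for the control ASO against saline and -0.0318 to -0.0012 for both ASO groups. Against saline, the C9orf72 ASO median was 0.041 with median log ratio scaling and 0.0509 with the length trend removed, and that of both ASO groups was 0.0133 with median log ratio scaling. Among named members the sign against the control ASO changed for Tpp1 (-0.0281 to 0.0621 with 1 library left out, negative without control ASO replicate 1) and Scarb2 (-0.0481 to 0.0912). Scarb2 was negative when the third control ASO library or the first C9orf72 ASO library was left out, the latter at -0.0043. The causes were not tested. No paired analysis was possible because the labels give no replicate numbers shared between groups. Each member rested on about 356 reads or more per library, and 3 libraries a group limit the precision.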
